A study of Mus musculus with 45 samples.

Results

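Loss of 1 copy of Rps19 was examined in the cytoplasmic mRNA of Ter119+ erythroblasts from mouse fetal liver at E15.5. The comparison was chosen by library title: 3 libraries of VavCre Rps19flox/+ Ter119+ cytoplasm were set against 3 libraries of Rps19flox/+ Ter119+ cytoplasm, which made up 6 of the 45 libraries of the series. Both groups came from matings of VavCre females with males homozygous for floxed alleles, so the controls also carried 1 floxed Rps19 allele and lacked only Cre. VavCre drives the recombinase in blood cells from their stem cells onwards, so the deletion would precede the Ter119+ stage. The share of cells that carried it at each stage is not given in the sources used here. No group carried VavCre without a floxed gene, and an effect of Cre itself cannot be told apart from that of the deletion. Liver cells were treated with 25 µg/mL emetine for 15 min, Kit+ cells were taken out on magnetic beads, and Ter119+ cells were then taken from the remaining Kit- cells. Cells of each genotype were pooled in equal numbers before lysis, and the clarified lysate was run on a sucrose gradient of 10 to 50%. The polyadenylated RNA of the cytoplasm and of the polysome fractions was sequenced. The batch tag of the labels gave each pool its own name, so p-values measure only the spread between pools, which may be partly technical. The same series held Kit+ cells of this line and both cell types of an Rpl5flox/+ line. Their cytoplasm libraries are used below to show where the Ter119+ response to Rps19 loss differed. The Ter119+ cytoplasm libraries of the Rpl5 line also share in the estimate of the spread and in the filter behind the calls. The controls of that line also serve to compare Ter119+ with Kit+ cells.

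Rps19 is a protein of the small ribosomal subunit that is needed to mature the 18S rRNA, and heterozygous loss of it in humans is a classic cause of Diamond-Blackfan anaemia, a failure of red cell production. When ribosome assembly stalls, free Rpl5 and Rpl11 together with 5S rRNA bind Mdm2, the ubiquitin ligase that keeps p53 low, and p53 then activates genes for cell cycle arrest, repair and death. Ter119, the surface antigen used for the selection, marks erythroblasts that make haemoglobin, shrink through their last divisions and then expel the nucleus.

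The 6 libraries held 44.99 M to 123.5 M reads, recovered as whole reads from the deposited values, and between 11906 and 12633 of the 13449 genes in the table had at least 1 read. Globin mRNAs took 54.65 to 57.54% of the reads in the controls and 46.72 to 49.09% in the VavCre libraries, against 0.9573 to 3.064% in the Kit+ cytoplasm libraries of this line. Globin, the defining product of the lineage, was thus high in all 6 libraries, as the Ter119+ label says, and Ahsp, the chaperone of free alpha globin, was not analysed here. Replicates correlated at 0.968 to 0.979 within the controls and at 0.985 to 0.988 within the VavCre libraries, against 0.939 to 0.967 between the groups, over genes, which are not independent. All values below are normalised counts (reads divided by the library's size factor), recovered from the deposited values and given in the order of replicates 1, 2 and 3. Changes are VavCre Rps19flox/+ minus Rps19flox/+ on the deposited log2 scale, a variance-stabilised scale that compresses the changes of low genes, with their standard error (SE) and the Benjamini-Hochberg adjusted p-value of limma over all genes tested. A gene is said to have risen or fallen only where that p-value was below 0.05.

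Of 10939 genes tested, 1363 rose (12.5%) and 1454 fell (13.3%), or 2817 in all (25.8%), and 4244 had an unadjusted p below 0.05. Among the called genes, 514 rose and 585 fell by more than 1 on the log2 scale. In 4716 genes (43.1%) all VavCre libraries lay on 1 side of all controls. The median change over all genes was -0.03. Among the 3877 genes with a mean of at least 500 normalised counts, 355 rose and 704 fell. The scaling mattered to the balance: scaled by library totals without globin reads, 1888 genes rose and 692 fell, and the median change moved to 0.18. Among the falls named below, those of Alad, Apoe, Btg2, Cdc25c, Ddit3, Eif4ebp1, Epor, Hbq1b, Jak2, Nupr1, Rac1, Rb1, Sbds, Shmt2, Slc25a38, Slc2a4, Tpm3, Tyms and Uros were not called by that scaling. Without VavCre replicate 3, the number of genes called was 1759.

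**Figure D1:**
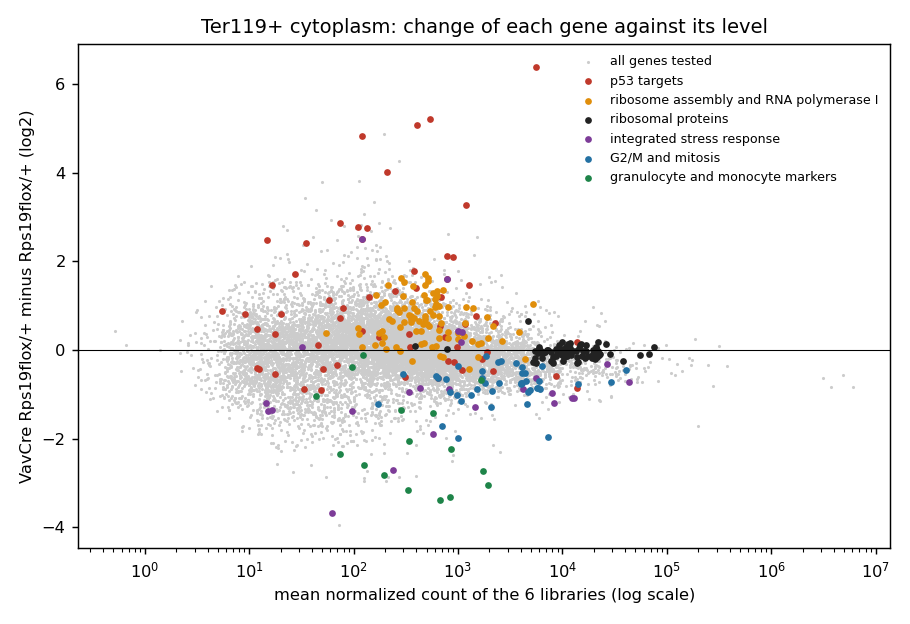
Log2 change of every tested gene (VavCre Rps19flox/+ minus Rps19flox/+, deposited scale) against its mean normalised count in the 6 libraries on a log axis, with members of selected gene lists coloured. Cdkn1a lies highest, at 6.39, and H2ac19 lowest, at -3.95.

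Rps19 itself lies on chromosome 7 (chr7:24884592-24889811, GRCm38). Its mRNA stood at 13048, 13099 and 15378 in the controls and at 10787, 13710 and 11573 in the VavCre libraries, so the groups overlapped. The change was -0.21 ± 0.14 (adjusted p = 0.302). In Kit+ cytoplasm of the same line it was -0.48 ± 0.12. The labels do not say which exons are floxed, and reads from outside them would still be counted, so the mRNA level is a limited check of the genotype. In the polysome fractions of the same Ter119+ cells, Rps19 stood at 32086, 27674 and 34246 in the controls and at 14497, 14951 and 16139 in the VavCre libraries, without overlap. Another small-subunit mRNA, Rps20, stood at 24291, 27242 and 24011 in control polysomes and at 12062, 13136 and 12008 in VavCre polysomes. Polysome values here and below were not tested. The control polysome libraries were shallower, at 4.587 M to 16.07 M reads against 20.48 M to 33.56 M in the VavCre ones. Low control values there rest on few reads. Tsr2, the chaperone that carries Rps26 to the nascent small subunit and is itself mutated in a form of the anaemia, rose from 118, 124 and 121 to 224, 256 and 353 (1.09 ± 0.24, adjusted p = 0.00522). Its reads can include those of Fgd1, which overlaps it.

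The mRNA of p53, Trp53, rose. It stood at 1162, 1224 and 1381 in the controls and at 2374, 2568 and 2644 in the VavCre libraries, a change of 1.00 ± 0.12 (adjusted p = 9.46e-05). Every VavCre library lay far above every control. In the polysome fractions the values were 732, 351 and 384 against 2185, 2538 and 2145. Mdm2, which p53 itself induces, rose from 1037, 1019 and 755 to 1526, 1298 and 1385 (0.59 ± 0.16, adjusted p = 0.0169), a call lost without control replicate 3 or VavCre replicate 1 or 3. Mdm4, its partner in holding p53 down, changed by 0.02 (adjusted p = 0.951). Rpl5 and Rpl11, whose proteins inhibit Mdm2, showed changes of 0.08 and 0.01 that were not called.

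The promoters of the p53 target genes are shown first, since these genes hold the largest rises of the comparison. The p53 half-site, a 10-base motif searched by its usual consensus on both strands, occurred in the 250 bases before the transcription start of 13 of 49 tested p53 list genes with a window (26.5%), against 7.19% of the 8792 tested genes with a window. Windows are from RefSeq on GRCm38.p6, and the capitals mark the motif. A gene was counted if any of its starts had a match, and Aen had another start without one. The first sequence shows a p53 site of 2 half-sites, which only 18 of 27025 genes had in this window. Cdkn1a had another start without such a site of 2 half-sites. The capitals of the first sequence also cover the bases between the half-sites.
Cdkn1a, + strand, chr17:29090886-29090957: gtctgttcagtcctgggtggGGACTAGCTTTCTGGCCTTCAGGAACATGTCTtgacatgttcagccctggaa
Ccng1, - strand, chr11:40755442-40755491: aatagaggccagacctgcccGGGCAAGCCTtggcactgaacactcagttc
Aen, + strand, chr7:78895917-78895966: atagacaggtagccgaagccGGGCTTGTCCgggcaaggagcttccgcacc
Ei24, - strand, chr9:36797335-36797364: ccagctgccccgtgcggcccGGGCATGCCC
Bax, - strand, chr7:45467070-45467119: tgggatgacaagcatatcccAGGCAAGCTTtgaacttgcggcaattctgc
Mdm2, - strand, chr10:117710915-117710964: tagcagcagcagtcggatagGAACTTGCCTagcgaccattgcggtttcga

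Of the 13 list genes with a half-site in this window, 8 rose and 0 fell, with a median change of 0.61. Of the 36 without one, 17 rose and 4 fell, with a median of 0.50. A match in this window is a description and not a site of binding, and many known p53 sites lie outside it.

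Many p53 targets rose. Of 60 tested genes in 4 lists of such targets, 30 rose (50%) and 5 fell (8.33%), against 12.5 and 13.3% of all genes, and their median change was 0.67 against -0.03. Among the 14 genes of cell cycle arrest, 7 rose and 2 fell. Cdkn1a (chr17:29090979-29100722), which encodes the Cdk inhibitor p21, stood at 109, 103 and 146 in the controls and at 11378, 10944 and 11034 in the VavCre libraries. That is the largest change of any tested gene, at 6.39 ± 0.13 (adjusted p = 7.35e-13). The spread within each group was small beside this gap. Its polysome values were 119, 30.9 and 98.3 against 11161, 9735 and 10469.

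Zmat3, an RNA-binding splicing regulator, stood at 21.7, 4.78 and 27.4 against 1173, 881 and 1138 (5.22 ± 0.29, adjusted p = 2.33e-07). Phlda3, which restrains Akt at the membrane, stood at 20, 9.57 and 6.19 against 688, 764 and 953 (5.09 ± 0.28, adjusted p = 2.33e-07). Ccng1, a cyclin that feeds back on Mdm2, stood at 247, 220 and 169 against 2346, 1873 and 2231 (3.26 ± 0.28, adjusted p = 1.02e-05). In none of these genes did a VavCre library come near a control. Psrc1, a microtubule regulator, rose by 2.11, Plk2 by 2.78 and Trp53inp1 by 1.39. The list had exceptions. Btg2, an antiproliferative gene, fell from 13096, 9288 and 8790 to 9152, 5705 and 6177 (-0.58, adjusted p = 0.0444) with groups that overlapped, and Cdc25c, a phosphatase that drives entry into mitosis and is repressed in arrest, fell (-0.63, adjusted p = 0.0412). Neither of these falls was called when VavCre replicate 3 was left out, nor when control replicate 1 or 2 or VavCre replicate 2 was. Gtse1 changed by -0.03 and Sesn1 by -0.45, with no call.

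Among the 16 genes of cell death, 8 rose and 0 fell. The largest change was that of Eda2r, a death receptor of the TNF family, which was listed at 0.328, 0.683 and 0 in the controls and at 262, 209 and 257 in the VavCre libraries (4.84). Tnfrsf10b, the mouse TRAIL receptor, stood at 6.24, 3.42 and 20.3 against 134, 105 and 179 (2.86). Aen, a nuclease, rose from 267, 199 and 415 to 1312, 1215 and 1281 (2.12 ± 0.24, adjusted p = 8.29e-05). These 3 genes separated the groups completely. Ei24, an endoplasmic reticulum protein, stood at 704, 685 and 612 against 1826, 1841 and 1920 (1.46 ± 0.11, adjusted p = 3.89e-06). Bax, which opens the outer mitochondrial membrane, stood at 1006, 971 and 1361 against 1731, 1957 and 1967 (0.77 ± 0.14, adjusted p = 0.00152). Bbc3, which encodes Puma, was not among them: it stood at 943, 978 and 1072 in the controls and at 823, 755 and 901 in the VavCre libraries (-0.27 ± 0.18, adjusted p = 0.284). Fas had too few reads for a firm value (0.88, adjusted p = 0.102).

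Of 14 tested members of the Bcl2 family, 3 rose (21.4%) and 0 fell, against 12.5 and 13.3% of all genes. Pmaip1, which encodes Noxa, was close to the threshold (0.73, adjusted p = 0.0431) and lost its call without control replicate 2 or 3 or VavCre replicate 1 or 2. The other two were Bax, above, and Bid, which links death receptors to mitochondria, at 137, 150 and 99.9 against 286, 310 and 347 (1.21 ± 0.21, adjusted p = 0.00122). Bcl2l1, which encodes the Bcl-xL that keeps late erythroblasts alive, stood at 46030, 40052 and 40173 against 29010, 23577 and 26937. Its groups did not overlap, and the change of -0.67 missed the threshold (adjusted p = 0.085). That change was called when these 6 libraries were fitted alone. Mcl1 changed by -0.23 (adjusted p = 0.331).

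Of the 15 tested p53 targets in feedback and DNA repair, 5 rose and 2 fell. Without control replicate 3, 4 rose, and without VavCre replicates 1, 2 and 3, 3, 4 and 3 rose. Xpc, the damage sensor of nucleotide excision repair, rose by 0.94 (adjusted p = 0.0435). Pcna, the sliding clamp of DNA polymerases, fell and is described with the replication genes below. Among the 18 tested targets in metabolism and other roles, 12 rose and 1 fell. Sesn2, a leucine sensor that restrains mTORC1, stood at 331, 400 and 417 against 1268, 1096 and 1225 (1.61 ± 0.21, adjusted p = 0.00021). Ddit4, another brake on mTORC1, stood at 27.9, 19.8 and 32.7 against 213, 183 and 253 (2.51 ± 0.25, adjusted p = 3.75e-05). Dglucy, a mitochondrial D-glutamate cyclase, rose by 4.02 and Slc19a2, a thiamine transporter, by 1.78. Zfp365 was at 0 reads in all 3 controls and at 41.2, 19.2 and 28.4 in the VavCre libraries, at least 53.9-fold higher against a floor of 3 reads over the group.

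**Figure D2:**
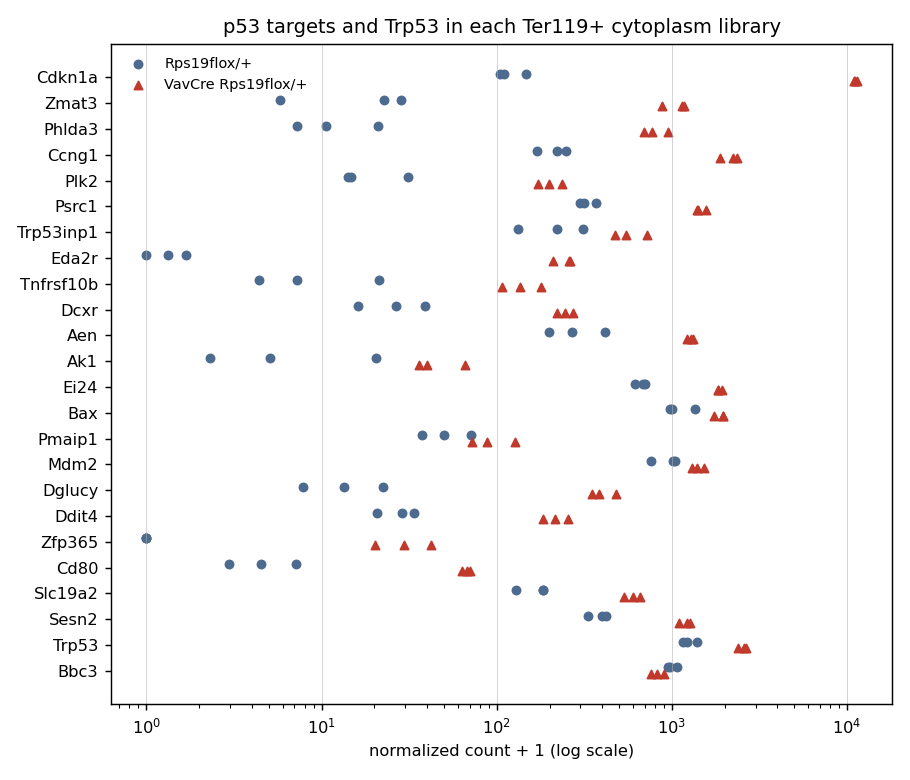
Normalised count plus 1 on a log axis for 24 p53 pathway genes, 1 point per library, with control libraries and VavCre Rps19flox/+ libraries in separate colours. The points of Cdkn1a lie between 103 and 146 in the controls and between 10944 and 11378 in the VavCre libraries, while those of Bbc3 lie close together.

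Several of the largest rises lay outside these lists. Tmtc1, an O-mannosyltransferase of the endoplasmic reticulum, stood at 3.28, 10.2 and 0 in the controls and at 468, 382 and 315 in the VavCre libraries (4.87 ± 0.44, adjusted p = 1.6e-05). Its polysome values were 0, 0 and 0 against 596, 425 and 234. C2cd4a stood at 15.4, 15 and 13.3 against 473, 461 and 645 (4.28 ± 0.26, adjusted p = 5.65e-07). Both genes were close to silent in the controls. Cpt1c, a carnitine palmitoyltransferase relative best known from brain, stood at 0.657, 5.47 and 13.3 against 226, 184 and 252 (3.81). Got1l1, a relative of the aspartate aminotransferase, was at 0 reads in the 3 controls and at 51, 71.3 and 82.2 in the VavCre libraries, at least 129-fold higher.

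Many factors that assemble ribosomes rose, while ribosomal protein mRNAs were almost never called. Of 31 small-subunit protein genes other than Rps19, 0 rose and 0 fell, with changes between -0.28 and 0.12 and a median of -0.08. Among 47 large-subunit genes, Rpl10 alone was called, at 3378, 4416 and 3184 against 5251, 6574 and 5313 (0.65 ± 0.17, adjusted p = 0.0128). It was not called when VavCre replicate 2 was left out. These genes have many near-identical pseudogenes, and how reads of such copies were counted is not given in the sources used here.

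Of the 93 tested assembly factors and RNA polymerase I genes, 53 rose (57%) and 1 fell, and 68 had all VavCre libraries above all controls (21% of all genes did). Their median change was 0.64. By role, 22 of 39 small-subunit assembly factors rose and 0 fell, 25 of 40 large-subunit factors rose and 1 fell, and 6 of 14 genes of the RNA polymerase I machinery rose. Without VavCre replicate 3, 17 of the large-subunit factors and 19 of the small-subunit factors rose.

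Nat10, the acetyltransferase of 18S rRNA, stood at 188, 195 and 270 against 661, 724 and 846 (1.72 ± 0.24, adjusted p = 0.0003). Utp4, a protein of the complex that first binds the pre-rRNA, stood at 225, 305 and 217 against 696, 754 and 930 (1.62 ± 0.18, adjusted p = 6.83e-05). Wdr36, another member of that processome, stood at 172, 191 and 218 against 533, 526 and 596 (1.45 ± 0.16, adjusted p = 6.83e-05). In all 3 the lowest VavCre value exceeded the highest control value. Fibrillarin, the methyltransferase Fbl that marks the nucleolus, rose by 0.74 and the GTPase Bms1 by 1.22.

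On the large-subunit side, the methyltransferase Nop2 stood at 457, 346 and 396 against 994, 930 and 1199 (1.35 ± 0.15, adjusted p = 6.85e-05). Npm1, the abundant nucleolar chaperone, stood at 3673, 3575 and 2981 against 6505, 6779 and 7869 (1.05 ± 0.21, adjusted p = 0.00326). All members of the PeBoW complex rose, Pes1 by 0.96, Bop1 by 1.16 and Wdr12 by 1.23. Bop1 and Wdr12 overlap other genes of the table, so part of their reads is uncertain. Sbds, the factor of Shwachman-Diamond syndrome that releases Eif6 from the finished subunit, was the 1 that fell, from 1536, 1459 and 1417 to 1173, 1021 and 1055 (-0.44, adjusted p = 0.0277). The call on Sbds was lost without control replicate 1 or 2 or VavCre replicate 2 or 3.

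The catalytic subunits of RNA polymerase I rose together. Polr1a stood at 230, 266 and 239 against 632, 630 and 888 (1.48 ± 0.15, adjusted p = 4.78e-05). Polr1b stood at 242, 302 and 232 against 758, 750 and 835 (1.55 ± 0.18, adjusted p = 9.46e-05). Tcof1, the nucleolar scaffold of Treacher Collins syndrome, rose by 1.04 and the initiation factor Rrn3 by 0.98. Not every nucleolar gene did: Ncl (0.41, adjusted p = 0.356) and Ubtf (-0.20, adjusted p = 0.252) were not called. An E-box CACGTG, the letters that Myc binds, occurred in the promoter window of 6 of 67 assembly factors (8.96%) against 10.2% of tested genes. Of those 6, 4 rose, and of the 61 without it, 36 rose.

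Of 45 translation factors 9 rose (20%) and 4 fell (8.89%), against 12.5 and 13.3% of all genes. Eif4g1, the scaffold that joins cap and ribosome, stood at 4051, 3888 and 3731 against 7405, 6709 and 6589 (0.82 ± 0.10, adjusted p = 0.000151). Subunits of the exchange factor for eIF2, Eif2b1, Eif2b3 and Eif2b5, rose by 0.77, 0.72 and 0.75. Eif1, which guards start codon choice, moved the other way, from 36768, 40473 and 39914 to 19071, 19004 and 18327 (-1.05 ± 0.14, adjusted p = 0.000242). Eif4ebp1, the repressor of the cap-binding factor that Atf4 induces, fell by 0.90.

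Most tested genes of the integrated stress response fell. This programme runs from kinases that phosphorylate eIF2, Eif2ak1 being the haem-sensing one of erythroblasts, to Atf4 and its targets for amino acid supply and redox balance. Of 25 tested genes, 18 fell (72%) and 2 rose, with a median of -0.95. The 2 that rose, Ddit4 and Sesn2, are also p53 targets and are described above. By the scaling without globin reads, 13 fell. Leaving out VavCre replicate 2 left 12 that fell, and any other library 15 to 17.

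The element that Atf4 and its partners bind is shown for the genes that held it. The letters TGATGNAAN, on either strand, occurred in the promoter windows of 6 of 23 genes of the list (26.1%) against 2.43% of tested genes. All 6 fell, with a median of -1.31, and of the 17 without it 11 fell and 2 rose, with a median of -0.85. Of the 6, Slc7a11 was not called without control replicate 2 or VavCre replicate 2 or 3, nor were Atf3 and Nupr1 in the fit of 6 libraries alone. Capitals mark the element, from RefSeq on GRCm38.p6.
Asns, - strand, chr6:7693210-7693252: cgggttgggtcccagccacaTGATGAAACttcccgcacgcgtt
Chac1, + strand, chr2:119351028-119351076: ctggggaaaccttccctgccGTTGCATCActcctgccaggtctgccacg
Atf3, - strand, chr1:191183416-191183464: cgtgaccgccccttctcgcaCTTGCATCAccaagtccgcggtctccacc
Slc7a11, - strand, chr3:50443633-50443699: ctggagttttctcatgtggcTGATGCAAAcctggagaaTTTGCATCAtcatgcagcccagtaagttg
Pck2, + strand, chr14:55540142-55540190: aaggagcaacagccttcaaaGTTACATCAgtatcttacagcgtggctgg
Nupr1, - strand, chr7:126625553-126625601: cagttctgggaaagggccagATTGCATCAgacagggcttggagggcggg

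Atf4, the central transcription factor, fell from 14402, 14562 and 22046 to 7992, 7670 and 7826 (-1.09 ± 0.17, adjusted p = 0.000777). Atf5 fell from 756, 921 and 1104 to 239, 248 and 224 (-1.89 ± 0.15, adjusted p = 6.57e-06). Its reads can include those of Nup62, which overlaps it. Trib3, a pseudokinase that damps Atf4, stood at 213, 245 and 849 against 28, 57.2 and 46.1 (-2.72 ± 0.58, adjusted p = 0.00473). Control replicate 3 was the highest control for Atf4, Atf5 and Trib3, but the lowest control value of each lay above all VavCre values. Chac1, a glutathione-degrading enzyme, stood at 34.8, 84 and 250 in the controls and at 0, 0.854 and 0 in the VavCre libraries (-3.68 ± 0.54, adjusted p = 0.000458).

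Enzymes and transporters of amino acid supply moved with them. Asns, which makes asparagine, fell from 10263, 14476 and 10220 to 5064, 5365 and 4718 (-1.19 ± 0.27, adjusted p = 0.00597). Slc7a5, the leucine transporter, fell from 16448, 21074 and 15675 to 8829, 8195 and 7839 (-1.09 ± 0.23, adjusted p = 0.00397). Pck2, the mitochondrial phosphoenolpyruvate carboxykinase, fell from 1968, 2083 and 2115 to 926, 826 and 763 (-1.28 ± 0.26, adjusted p = 0.00317). Each of these 3 genes separated the groups. Ppp1r15a, the phosphatase subunit that reverses eIF2 phosphorylation, fell by 0.72, and Ddit3, which encodes Chop, by 0.88. Phgdh and Psat1, the first enzymes of serine synthesis, changed by 0.43 and 0.40, and Eif2ak1 by -0.31, with no call in any of these 3.

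Genes of cell division fell broadly. Of 42 genes of G2 and mitosis, 28 fell and 0 rose, with a median of -0.75, and of 41 genes of the G1/S transition and DNA replication 20 fell and 2 rose, with a median of -0.46. By the scaling without globin reads, 19 of the mitotic and 7 of the replication genes fell. Leaving out 1 library left 20 to 32 mitotic genes that fell (the lowest without control replicate 1 or VavCre replicate 2) and 13 to 18 replication genes (the lowest without VavCre replicate 3).

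The letters TTTGAA, the cell cycle homology region through which mitotic genes are repressed outside G2, occurred on either strand in the promoter windows of 13 of 35 mitotic list genes (37.1%) against 13% of tested genes. Of those 13, 8 fell with a median of -0.75, and of the 22 without it 14 fell with a median of -0.73. Genes that fell are shown with the motif in capitals (RefSeq, GRCm38.p6).
Cdk1, - strand, chr10:69352913-69353003: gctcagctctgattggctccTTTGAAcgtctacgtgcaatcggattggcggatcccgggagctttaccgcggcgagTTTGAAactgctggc
Ccnb2, - strand, chr9:70421696-70421741: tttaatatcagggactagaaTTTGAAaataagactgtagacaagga
Kif11, + strand, chr19:37376343-37376381: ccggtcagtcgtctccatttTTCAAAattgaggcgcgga
Ube2c, + strand, chr2:164769880-164769925: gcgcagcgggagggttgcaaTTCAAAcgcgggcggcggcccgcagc

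Cdk1, the mitotic kinase, fell from 6217, 6053 and 6141 to 3210, 3274 and 3070 (-0.94 ± 0.12, adjusted p = 0.000128). Ube2c, the ubiquitin-conjugating enzyme of the anaphase-promoting complex, fell from 34964, 37248 and 37427 to 22329, 22219 and 21678 (-0.73 ± 0.17, adjusted p = 0.00674). Replicates were tight for both, and the groups were far apart. Birc5, which encodes survivin, fell by 0.86, Ccnb2 by 0.71 and the kinesin Kif11 by 1.28. The proliferation marker Mki67 varied within the groups, at 25759, 4289 and 4924 against 3635, 589 and 4164, with control replicate 1 far above the rest, and was not called (-1.96, adjusted p = 0.0519). Cenpf, a kinetochore protein, was also highest in control replicate 1, at 2988, 906 and 882 against 502, 124 and 543, and was called (-1.98, adjusted p = 0.0116). The mitotic genes Bub1b, Cdc20 and Ccnb1 changed by -0.28, -0.30 and -0.37 with no call.

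Among replication genes, Pcna fell from 17178, 18358 and 17862 to 9927, 10812 and 8902 (-0.85 ± 0.12, adjusted p = 0.000381). Tk1 and Tyms, which supply thymidine nucleotides, fell by 0.87 and 0.65, and the transcription factor E2f1 by 0.90. The helicase genes Mcm2, Mcm3, Mcm4, Mcm5, Mcm6 and Mcm7 were not called, with changes between -0.42 and -0.11. The 2 genes that rose were those of the G1 cyclin and kinase pair Ccnd2 and Cdk6. Ccnd2 stood at 214, 171 and 266 against 1534, 1289 and 1378 (2.62 ± 0.22, adjusted p = 1.02e-05). Cdk6 stood at 204, 66.3 and 53.9 against 430, 277 and 241 (1.60 ± 0.43, adjusted p = 0.0146), with control replicate 1 closest to the VavCre libraries.

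Histone genes went with the replication genes, 7 of 8 lower and 0 higher, with a median of -0.99. H2ax fell from 15362, 16615 and 14655 to 7722, 7776 and 6782 (-1.06 ± 0.12, adjusted p = 9.46e-05). H2ac19 stood at 125, 25.3 and 282 in the controls and at 0 reads in the 3 VavCre libraries, at least 267-fold lower. Canonical histone mRNAs lack a poly(A) tail, so their level in polyadenylated RNA need not follow their total. Of 6 Cdk inhibitors, Cdkn1a alone rose and 4 fell. Cdkn2d, an inhibitor of Cdk4 and Cdk6, fell from 8314, 8856 and 7232 to 3198, 3066 and 2721 (-1.44 ± 0.15, adjusted p = 5.34e-05). Cdkn2c fell by 1.20, Cdkn3 by 0.99 and Cdkn1b, which encodes p27, by 0.92.

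**Figure D3:**
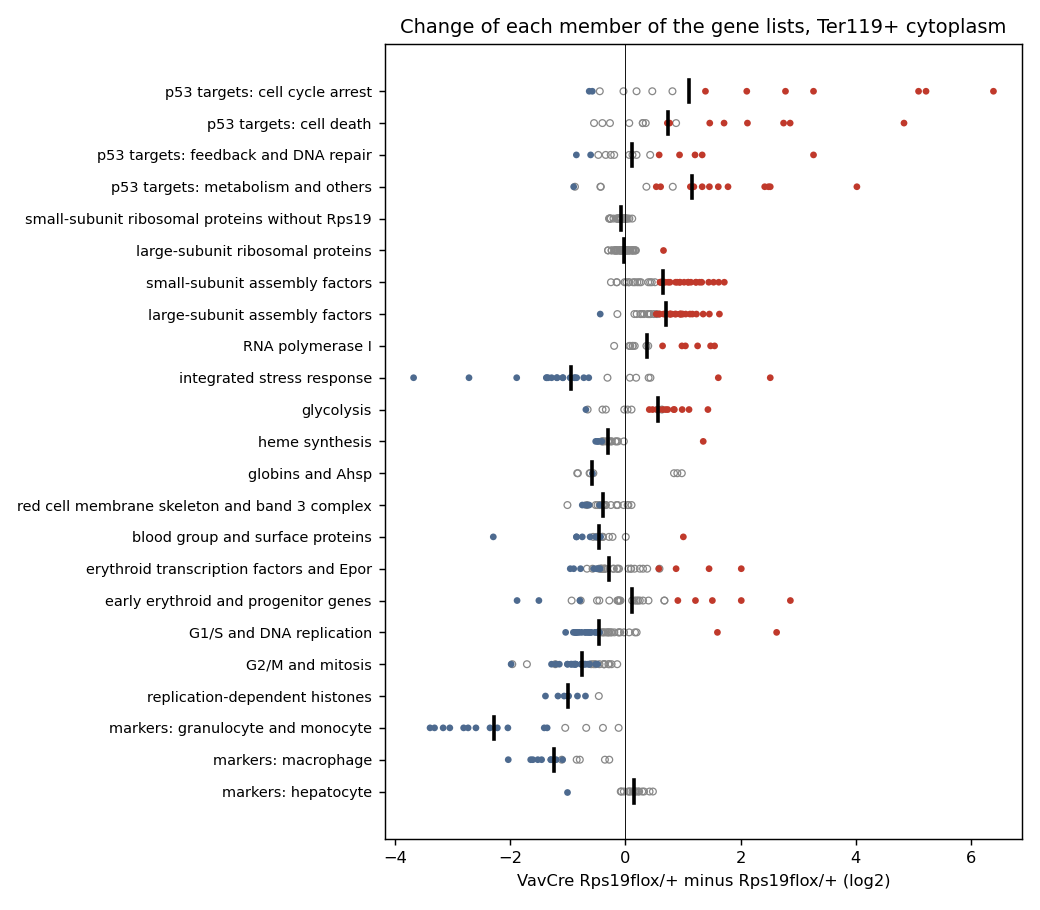
Log2 change (VavCre Rps19flox/+ minus Rps19flox/+) of each tested member of the gene lists, with filled blue and red points for members that were called lower or higher, open grey points for the rest and a black bar at each median. Medians stand at 0.70 for large-subunit assembly factors, -0.95 for the integrated stress response and -2.29 for granulocyte and monocyte markers.

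For the red cell programme itself the calls depended on the fit. In bulk RNA, fewer cells of a stage and less RNA per cell cannot be told apart. Of 9 globin genes, Hbq1b alone was called (-0.58, adjusted p = 0.0411), and it was not called without any 1 of the 6 libraries, although 6 had all VavCre libraries below all controls (22.1% of all genes did). Hba-a1 stood at 4884020, 4653480 and 4943530 against 2711980, 2586080 and 2811100 (-0.84 ± 0.59, adjusted p = 0.312). Hbb-bs stood at 7944610, 7453030 and 8111190 against 4521480, 4099720 and 4657320 (-0.83 ± 0.68, adjusted p = 0.396). The replicates of these 2 genes lay close together within this line. Fitted on these 6 libraries alone, in place of the 12 that share 1 estimate of the spread, 6 globin genes fell, Hbb-bs with an adjusted p of 0.00323. By the scaling without globin reads, 0 globin genes fell and 1 rose. The embryonic globin Hbb-y stood at 7129, 10416 and 21162 against 12630, 44250 and 21555, with VavCre replicate 2 highest (0.98, adjusted p = 0.21). The adult globin genes occur as near-identical pairs, between which reads may be split.

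Of 18 haem synthesis genes, 4 fell (22.2%) and 1 rose (5.56%), against 13.3 and 12.5% of all genes, with a median of -0.30. By the scaling without globin reads 0 fell, and in the fit of 6 libraries alone 8 did. Leaving out 1 library left 3 genes that fell, or 2 without VavCre replicate 2 or 3. Alas2, the first and rate-limiting enzyme in erythroblasts, stood at 189106, 191094 and 192378 against 161980, 138474 and 153669, and the change of -0.34 was not called (adjusted p = 0.447). In the fit of 6 libraries alone Alas2 was called lower (adjusted p = 0.0322). Alad, Uros and Slc25a38 fell by 0.41, 0.48 and 0.52. Flvcr1, the haem exporter whose loss in mice blocks red cell production, rose from 68.9, 61.5 and 51.3 to 182, 166 and 179 (1.35 ± 0.21, adjusted p = 0.000673).

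Of 18 iron genes, 5 fell (27.8%) and 2 rose (11.1%), against 13.3 and 12.5% of all genes. Leaving out 1 library left 1 to 3 that fell (1 without VavCre replicate 1). Tfrc, the transferrin receptor, fell from 47990, 31465 and 39023 to 23078, 14979 and 19760 (-1.04 ± 0.21, adjusted p = 0.00353). Tfr2, its homologue that also binds the erythropoietin receptor, rose from 1180, 1136 and 1024 to 1724, 1571 and 1500 (0.52 ± 0.12, adjusted p = 0.00604). Aco1, the iron regulatory protein that protects Tfrc mRNA, rose from 158, 195 and 153 to 306, 308 and 273 (0.77 ± 0.14, adjusted p = 0.0019). In all 3 genes the groups did not overlap.

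Of 21 genes of the membrane skeleton and band 3 complex, 5 fell (23.8%, against 13.3% of all genes) and 0 rose. Their median was -0.39, and in the fit of 6 libraries alone 10 fell. Slc4a1, band 3 itself, stood at 419507, 476882 and 374830 against 361534, 320844 and 312522 (-0.35, adjusted p = 0.421). The called genes were Tpm1, Tpm3, Actb and Tmod1 of the actin filaments and the glucose transporter Slc2a4. Of 17 blood group and surface proteins, 7 fell (41.2%) and 1 rose (5.88%). Leaving out control replicate 1 or 2 or VavCre replicate 2 or 3 left 3, 4, 2 and 4 that fell, and in the fit of 6 libraries alone 12 did. Aqp1, the water channel that carries the Colton antigen, had the largest change, from 4451, 4216 and 3911 to 979, 808 and 754 (-2.29 ± 0.14, adjusted p = 6.8e-07). The highest VavCre value lay far below the lowest control value. In polysomes it stood at 2036, 2664 and 1357 against 1022, 829 and 916. Cd44, which erythroblasts lose as they mature, rose from 361, 307 and 411 to 745, 725 and 728 (1.01 ± 0.14, adjusted p = 0.000335).

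Of 34 erythroid transcription factors and signalling genes, 4 rose (11.8%) and 7 fell (20.6%), against 12.5 and 13.3% of all genes. In the fit of 6 libraries alone 13 fell, by the scaling without globin reads 2, and without control replicate 1 or VavCre replicate 2 or 3 there were 3, 2 and 2. Gata1, the master factor of the lineage, stood at 9240, 9648 and 11061 against 7788, 7922 and 7741 (-0.35 ± 0.13, adjusted p = 0.0577). Klf1 stood at 15073, 17079 and 17868 against 12430, 12934 and 12798 (-0.39 ± 0.15, adjusted p = 0.0661). In both genes the groups did not overlap, yet neither was called in the main fit. Both were called lower in the fit of 6 libraries alone (adjusted p = 0.0299 and 0.0185). Tal1 changed by -0.15 and Nfe2 by -0.37, and of these only Nfe2 was called in that fit (adjusted p = 0.0278). Epor, the erythropoietin receptor, fell from 6743, 6742 and 6870 to 5156, 4885 and 4959 (-0.44 ± 0.12, adjusted p = 0.0182), a call lost without VavCre replicate 2 or 3. Downstream of it, Stat5a rose from 97.8, 81.3 and 126 to 295, 255 and 356 (1.45 ± 0.20, adjusted p = 0.000259). The Stat5 target Cish rose from 939, 931 and 938 to 1693, 1638 and 1881 (0.88 ± 0.10, adjusted p = 0.00011). Jak2 fell by 0.96 and Socs3 by 0.90, so members of 1 pathway moved in both directions.

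**Figure D4:**
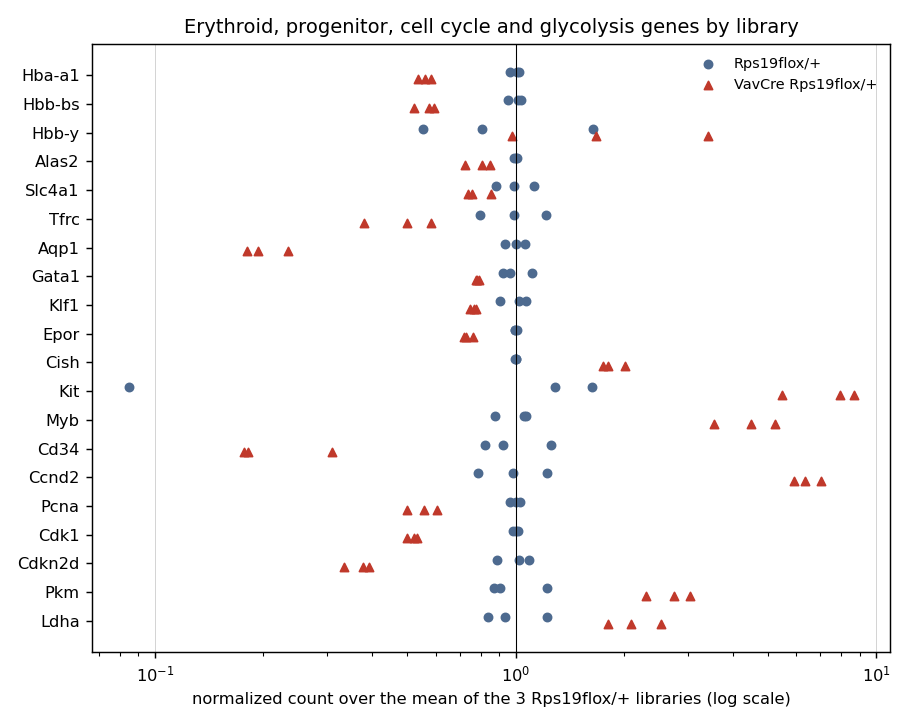
Normalised count of each library divided by the mean of the 3 controls, on a log axis, for 20 genes from Hba-a1 to Ldha, with controls and VavCre Rps19flox/+ libraries in separate colours. Aqp1 and Cd34 lie lowest in the VavCre libraries and Myb, Kit and Ccnd2 highest, while Gata1, Klf1 and Alas2 stay close to the controls.

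Of 27 tested genes of early erythroid and progenitor cells, 5 rose (18.5%) and 3 fell (11.1%), near the 12.5 and 13.3% of all genes, and by the scaling without globin reads 8 rose. Among those that rose, Myb, which erythroblasts switch off before their last divisions, rose from 133, 131 and 109 to 556, 440 and 650 (2.01 ± 0.21, adjusted p = 4.13e-05). Kit, the stem cell factor receptor and the gate by which the Kit+ cells had been taken out before Ter119+ selection, rose from 68, 54 and 3.54 to 363, 230 and 332 (2.86 ± 0.52, adjusted p = 0.00162). For comparison, Kit averaged 1441 ± 93.5 (SD, n = 3) in the Rps19flox/+ and 1511 ± 112 (SD, n = 3) in the VavCre Rps19flox/+ libraries of Kit+ cytoplasm. Myc rose from 295, 314 and 331 to 570, 572 and 668 (0.91 ± 0.18, adjusted p = 0.00281). Igf2bp1, a fetal RNA-binding protein, rose by 1.22 and Tgfbr3 by 1.51. The fetal regulator Lin28b changed by -0.12 (adjusted p = 0.687). Cd34 and Flt3, markers of stem and multipotent cells, were among those that fell. Cd34 fell from 182, 161 and 246 to 34.6, 60.6 and 35.5 (-1.88 ± 0.29, adjusted p = 0.000613) and Flt3 from 42.7, 17.8 and 24.8 to 2.2, 4.7 and 3.04.

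Of 34 genes of late maturation, organelle loss and enucleation, 2 fell, Rac1 and Rb1, and 0 rose, and Rb1 overlaps Lpar6. Without control replicate 1 or 2 or VavCre replicate 2 or 3, 0 fell, and in the fit of 6 libraries alone 14 fell. The mitophagy receptor Bnip3l stood at 27144, 25280 and 17248 against 23243, 18010 and 18982, with no call (-0.19, adjusted p = 0.687).

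A wider view came from the control libraries of the Rpl5 line, which do not enter the size of the Rps19 changes. Their Ter119+ libraries do share in the estimate of the spread and in the filter behind the calls. In these controls, 7742 of 10963 genes differed between Ter119+ and Kit+ cytoplasm (70.6%), 32.9% higher and 37.7% lower in Ter119+ cells. Of 3604 genes higher in Ter119+ cells and tested in both, 2.75% rose and 23.1% fell upon Rps19 loss, with a median of -0.28. Of 4028 genes lower in Ter119+ cells, 25.0% rose and 6.46% fell, with a median of 0.27. For all 10752 genes in both fits the shares were 12.4 and 13.5%. Among the 418 genes lower in Ter119+ cells by more than 2 on the log2 scale, 49.0% rose and 5.02% fell. Among the 1050 genes higher by more than 2, 1.71% rose and 26.2% fell. A shift of cells along this axis and a change within cells cannot be told apart in these pools.

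Among metabolic genes, those of glycolysis stood out. Of 21 glycolysis genes, 12 rose (57.1%) and 1 fell, with a median of 0.56. Without VavCre replicate 2 or 3, 9 rose. Pkm, the pyruvate kinase of proliferating cells, stood at 1294, 1244 and 1748 against 3293, 3936 and 4348 (1.43 ± 0.19, adjusted p = 0.000187). Ldha, which makes lactate, stood at 3129, 3469 and 4563 against 6737, 7803 and 9412 (1.10 ± 0.19, adjusted p = 0.00104). Pklr, the red cell pyruvate kinase whose deficiency causes haemolysis, rose from 15049, 17880 and 17811 to 29623, 32013 and 28866 (0.84 ± 0.14, adjusted p = 0.0012). All 3 separated the groups, and Pklr overlaps Hcn3. The glucose transporter Slc2a1 (0.11) and the phosphofructokinase genes Pfkl (-0.02) and Pfkm (0.04) were not called. The lactate exporter Slc16a1 fell by 0.69, a call lost without control replicate 1 or 2 or VavCre replicate 2 or 3.

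Few mitochondrial genes were called. Of 13 mRNAs encoded by mitochondrial DNA 0 were called, and of 39 nuclear genes of oxidative phosphorylation 1 rose and 1 fell. Of 50 mitochondrial ribosomal proteins 7 rose (14%) and 1 fell, against 12.5 and 13.3% of all genes. Leaving out control replicate 1 or VavCre replicate 2 or 3 left 4, 4 and 3 mitochondrial ribosomal proteins that rose. Of 36 proteasome subunits 0 rose and 2 fell, and both were the immunoproteasome genes Psmb8 (-1.55) and Psmb9 (-1.81). By the scaling without globin reads, 5 genes of oxidative phosphorylation, 6 proteasome subunits and 7 of cholesterol synthesis rose. Of 23 cholesterol synthesis genes 4 rose (17.4%) and 2 fell (8.7%). Of 22 antioxidant genes 2 rose (9.09%), the peroxiredoxins Prdx1 (0.88) and Prdx6 (0.76), and 3 fell (13.6%). Without VavCre replicate 3, 0 antioxidant genes fell, without control replicate 2 or VavCre replicate 2, 1 did, and in the fit of 6 libraries alone 8 did.

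Of 21 immediate early and heat shock genes, 5 rose (23.8%) and 8 fell (38.1%), and without VavCre replicate 3, 3 rose. Jun stood at 256, 139 and 275 against 1115, 731 and 1009 (2.05 ± 0.30, adjusted p = 0.000387). Fos, its usual partner, stood at 251, 224 and 276 against 117, 102 and 90.3 (-1.17 ± 0.21, adjusted p = 0.00161). Neither gene had groups that overlapped. Ier3, Dusp1 and Nr4a1 fell by 1.43, 1.05 and 1.61. The mitochondrial chaperonin pair rose, Hspd1 from 2207, 2090 and 1923 to 5252, 4619 and 5337 (1.28 ± 0.23, adjusted p = 0.0014) and Hspe1 by 0.80. These 2 genes lie head to head and overlap. Hspa1a and Hspa1b, the inducible Hsp70 genes, were highest in replicate 1 of both groups and were not called.

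Many of the largest falls were those of granulocyte genes. Of 16 granulocyte and monocyte markers, 12 fell (75%) and 0 rose, against 13.3 and 12.5% of all genes, with a median of -2.29. Camp, the cathelicidin of neutrophil granules, fell from 1712, 643 and 1402 to 138, 118 and 54.3 (-3.39 ± 0.37, adjusted p = 6.83e-05). S100a9, a subunit of calprotectin, fell from 4996, 1997 and 3324 to 603, 490 and 175 (-3.05 ± 0.45, adjusted p = 0.000484). Ngp fell by 3.31, Ltf by 3.16 and Lcn2 by 2.97. Control replicate 2 was the lowest control in each of these genes, yet it lay above all VavCre libraries. The azurophil granule gene Mpo stood at 2623, 1960 and 1599 against 1336, 1636 and 900 and was not called (-0.68, adjusted p = 0.112). Summed over the 16 markers the controls held 10454 to 21691 normalised counts and the VavCre libraries 2393 to 4311, with no marker at 0 in all libraries of a group. These genes are not made by erythroblasts, and the number of granulocytes in each selection is not given in the sources used here.

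Markers of other cell types were also present. The shares below stand against 13.3% of all genes that fell and 12.5% that rose. Of 14 macrophage markers 9 fell (64.3%) and 0 rose. Their sums were 3811 to 9328 in the controls, with replicate 3 highest, and 2869 to 3398 in the VavCre libraries, and without control replicate 3 or VavCre replicate 1 there were 6 and 5 that fell. B-lymphoid markers summed to 130 to 260 and to 10.2 to 28, with Ebf1 and Pax5 at 0 in the VavCre libraries. Of 6 tested, 3 fell (50%), and leaving out 1 library left 2 to 5 (5 without control replicate 3). In the fit of 6 libraries alone and by the scaling without globin reads, 2 B-lymphoid markers fell. Mast cell and basophil markers summed to 100 to 124 and to 27.4 to 37.9, with Cma1 at 0 in both groups and Tpsb2 at 0 in the VavCre libraries. Of 5 tested, 3 fell (60%), and 1 or 2 without any 1 library. Of 11 megakaryocyte markers 5 fell (45.5%) and 1 rose (9.09%), at sums of 1021 to 1754 and of 1024 to 1120. The 1 that rose was Tubb1 (0.99, lost without control replicate 1 or any VavCre library). Without control replicate 3 or VavCre replicate 1 or 2, 3 megakaryocyte markers fell, and without VavCre replicate 3 or by the scaling without globin reads, 2 did. Hepatocyte markers summed to 8485 to 24579 and to 13786 to 19165, with 1 of 17 called (5.88%), Apoe (-1.02). Endothelial markers summed to 972 to 1319 and to 1205 to 1333, with 3 of 13 lower (23.1%). Without control replicate 1 or any 1 VavCre library 1 endothelial marker fell, and by the scaling without globin reads 0 did. The stem and progenitor markers summed to 420 to 491 and to 774 to 1061, with Kit and Myb higher and Cd34 and Flt3 lower. The 9 erythroid markers, globins included, summed to 16483800 to 17779300 and to 9557490 to 10545500. The part of these other cells in the changes of Cd34, Flt3, the immunoproteasome genes and the immediate early genes was not tested.

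The response was then set against that of Kit+ cells of the same line. The changes share no library, but Ter119+ cells were taken from what the Kit+ selection left, so the pools of both cell types may come from the same livers. Kit+ changes and the differences come from the fit of the 12 cytoplasm libraries of this line. Their SE therefore rests on another estimate of the spread than the SE of the Ter119+ changes above. The difference of the 2 changes was called for 1296 of 10675 genes (12.1%), 334 higher (3.13%) and 962 lower (9.01%) in Ter119+ cells, and 3036 genes had an unadjusted p below 0.05. Rescaling the libraries to each other left 859, of which 296 were higher and 563 lower. Without any single library 743 to 1672 were called, with 743 without Rps19flox/+ Kit+ replicate 1, 760 without VavCre Ter119+ replicate 3 and 787 without Rps19flox/+ Kit+ replicate 3.

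In the integrated stress response, 11 of 23 genes were lower and 0 higher in Ter119+ than in Kit+ cells. Rps19 loss in Kit+ cells changed 39.6% of genes, and 8 of the 23 rose there (22.3% of all genes did) and 4 fell (17.3% of all genes did). Asns changed by -1.19 in Ter119+ and by 0.63 in Kit+ cells, a difference of -1.81 ± 0.17 (adjusted p = 0.000228). Slc7a5 changed by -1.09 and 0.64 (adjusted p of the difference = 0.000228) and Shmt2, the mitochondrial serine hydroxymethyltransferase, by -0.88 and 0.61 (adjusted p = 0.000373). Among p53 targets, Bbc3 differed, at -0.27 in Ter119+ and 1.65 in Kit+ cells (-1.92 ± 0.19, adjusted p = 0.000264). Gtse1, a mitotic p53 target, changed by -0.03 and 1.58 (adjusted p = 0.000228). Ccng1 differed the other way, by 1.37 (adjusted p = 0.0208). The Cdkn1a changes of 6.39 and 5.77 differed by 0.62, which was not called (adjusted p = 0.0625), and those of Trp53, 1.00 and 0.98, by 0.02.

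Some progenitor and nucleolar genes that rose in Ter119+ cells differed from Kit+ cells. Myb changed by 2.01 and 0.15 (difference 1.86 ± 0.22, adjusted p = 0.00102) and Kit by 2.86 and 0.07 (2.80 ± 0.65, adjusted p = 0.0157). Npm1 changed by 1.05 and -0.75 (1.80 ± 0.30, adjusted p = 0.00335). Tmtc1, among the largest rises in Ter119+ cells, changed by 0.34 in Kit+ cells (difference 4.54 ± 0.58, adjusted p = 0.00146). Of 39 small-subunit assembly factors, 7 differed upwards and 1 downwards, and of 40 large-subunit factors 9 and 2. Of the 41 replication genes, 19 were lower and 2 higher in the difference, and of the 42 mitotic genes 16 were lower and 0 higher. Gata1, Klf1 and Epor were each lower in the difference, by 0.54, 0.71 and 0.67. Ptp4a3, a phosphatase, changed by -0.22 in Ter119+ and by 2.40 in Kit+ cells (difference -2.61, adjusted p = 2.43e-05).

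**Figure D5:**
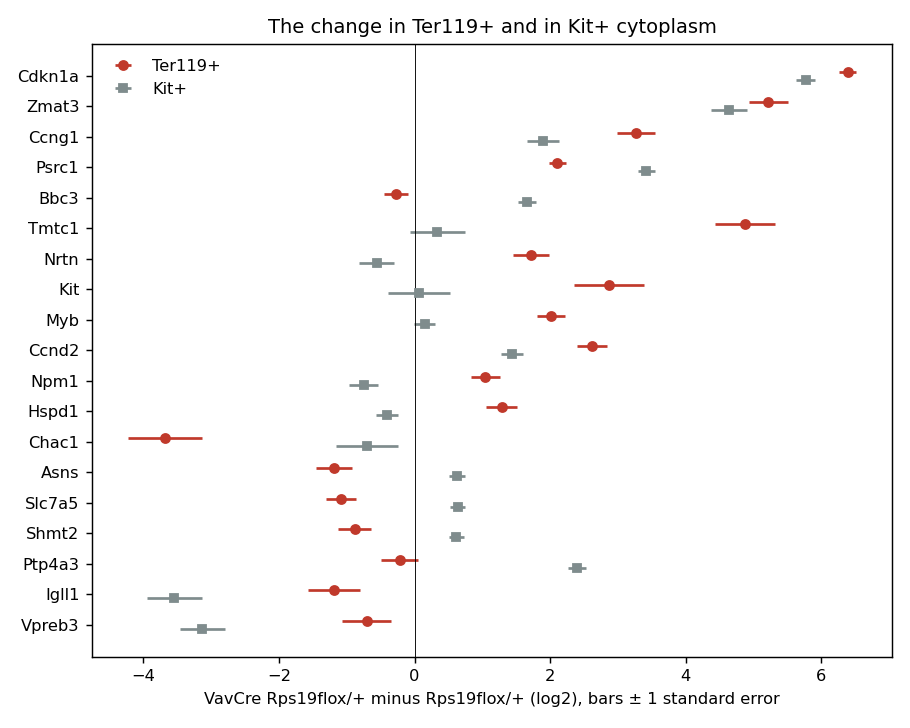
Log2 change (VavCre Rps19flox/+ minus Rps19flox/+) with bars of 1 SE in Ter119+ and in Kit+ cytoplasm for 19 genes. Asns, Slc7a5 and Shmt2 lie below 0 in Ter119+ and above 0 in Kit+ cells, and Myb and Kit lie above 0 in Ter119+ and near 0 in Kit+ cells.

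Set beside loss of Rpl5, a large-subunit protein, in the same cell type, the Rps19 change differed in 4536 of 10939 genes (41.5%), 2291 higher (20.9%) and 2245 lower (20.5%). The changes share no library. Rpl5 loss by itself changed 65.5% of genes, 35.3% upwards and 30.1% downwards. Ribosomal proteins set the lines apart: 0 of 78 were higher and 70 lower in the Rps19 line, where their changes lay near 0, and Rps19 mRNA itself changed by -0.21 upon Rps19 loss and by 1.08 upon Rpl5 loss (adjusted p of the difference = 0.000289). Mitotic genes were less reduced upon Rps19 loss, 30 of 42 higher and 0 lower in the difference, with Cdk1 at -0.94 in this line and -1.89 in the other. Of 34 erythroid factors 26 were higher and 2 lower, and of 21 membrane genes 16 and 1. Myb changed by 2.01 against 2.87, Ccnd2 by 2.62 against 3.40, Npm1 by 1.05 against 2.68 and Aqp1 by -2.29 against -3.00. Cdkn1a changed more upon Rps19 loss, 6.39 against 5.72 (difference 0.66, adjusted p = 0.00927), while Trp53 changed by 1.00 and 1.04. Granulocyte markers moved in opposite directions in the lines, with 16 of 16 lower in the difference. S100a9 changed by -3.05 and 2.33, and Camp by -3.39 and 1.94.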

How the data were processed

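Values came from 1 series-wide table of the authors on a log2 scale (13449 genes, 45 libraries), whose values follow a variance-stabilising transform. The genome build was mm10, per the submitters' processing notes, and no aligner, counter or strand setting is given in the sources used here. The deposited log2 values were inverted to normalised counts and whole reads: 100.0% of values came out whole within 1e-06. Groups were taken from the titles. Genes with a mean of at least 10 normalised counts over the 12 Ter119+ cytoplasm libraries entered a linear model (R 4.3.3, limma 3.58.1) with moderated, trended variances and two-sided tests at a Benjamini-Hochberg adjusted p of 0.05, and the Kit+ contrast with the 12 libraries of the Rps19 line. Alternatives were another scale, filters, scaling, voom, a replicate block, the 6 libraries alone and leaving out each library. The scripts were tested on simulated data. Members and lists were chosen with earlier results of these data known. Genes named were Rps19, Trp53 and other fixed names, the 10 largest called changes in each direction with groups apart and a higher mean of at least 50, the 4 smallest p-values of each list and the 6 largest called differences in each direction at that mean. Further list members, Bbc3 or Cdk6 for example, were named after their values were seen, and some genes the rule names are not reported here. Symbols and coordinates are from RefSeq GRCm38.p6, which matched 13226 symbols, and 17 more through synonyms.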

Additional observations from a re-analysis of the deposited data

Results flagged for a closer look

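The change upon Rps19 loss differed between Ter119+ and Kit+ cytoplasm in 1296 genes and between the Rps19 and Rpl5 lines in 4536 genes, by limma's test of the difference itself (adjusted p below 0.05). In the first comparison (Ter119+ minus Kit+, log2), large positive differences were those of Tmtc1 (4.54), Kit (2.80), Vpreb3 (2.43), Igll1 (2.35) and Nrtn, a GDNF family ligand (2.27). Vpreb3 and Igll1, genes of B-cell precursors, reached this through falls of 3.13 and 3.54 in Kit+ cells, not through a rise in Ter119+ cells. Large negative differences were those of Chac1 (-2.97), the gene model Gm45062 (-2.85), Ptp4a3 (-2.61), Zfp968 (-2.39), Chtf8 (-2.35, a gene that overlaps Derpc) and Gm45140 (-2.12). Gm45062 had 0 reads in Kit+ cells, so its difference is the Ter119+ change alone, which was not called (adjusted p = 0.0728). Among list members, Myb (1.86), Npm1 (1.80), Hspd1 (1.69) and Ccnd2 (1.18) were higher in Ter119+ cells, and Bbc3 (-1.92), Asns (-1.81), Slc7a5 (-1.72), Shmt2 (-1.50) and Psrc1 (-1.31) were lower.

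In the second comparison (Rps19 minus Rpl5 loss in Ter119+ cytoplasm), Gm28036 (5.55), Gm16867 (3.25), Snx22 (3.12), Sik2 (3.10) and Slc2a4 (3.10) were higher. All 5 fell upon Rpl5 loss. S100a9 (-5.38), Camp (-5.33), Derpc (-5.24), Exosc6 (-5.24), S100a8 (-5.16) and Ngp (-5.07) were lower. Derpc itself changed by only -0.07 upon Rps19 loss, with no call (adjusted p = 0.946). Exosc6 was at 0 in all 6 Ter119+ cytoplasm libraries of the Rps19 line, so its difference is that of the Rpl5 line alone.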

How the results depend on the processing

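The count of genes called in Ter119+ cytoplasm was 2803 on a log2 scale of the count plus 1, 2699 without a filter, 2573 at a mean of at least 50, 2831 with libraries rescaled, 2692 without a trend, 2616 from 6 libraries, 3031 by voom and 2580 by totals without globin reads (1888 higher, 692 lower). Leaving out 1 library gave 1759 to 2863, the lowest without VavCre replicate 3. Whether replicate numbers pair the pools cannot be settled from 3 pools per group. Same-numbered pools correlated at 0.36, 0.0081 and 0.051, and control 3 with VavCre 1 and 2 at -0.37 and 0.28. The replicate block gave 3394 calls. The cell type difference gave 1296 calls, 859 with libraries rescaled (34.5% higher, against 25.8%), 1240 with the replicate block, 1010 to 1360 under scale, filter and trend alternatives, and 743 to 1672 without 1 library. The difference between lines gave 4536 calls, 4047 to 4581 under scale, filter, scaling and trend alternatives, 5004 with the replicate block and 3779 to 4968 without 1 library. Of 156 called genes that the naming rule gave, 120 kept their call under each alternative of the Ter119+ comparison that tested them, 6 of these being below the filter of at least 1 alternative, and 36 lost it. Of 58 not called, 27 were called under at least 1, and 0 called changes reversed. Other named list members were not followed singly. Depth limits genes under about 10 normalised counts, such as Fas.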
